A study of Mus musculus with 407 samples.

Results

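The 8 genes followed here are read as signs of Schwann cells, of the myelin these cells wrap around motor axons, and of the trophic signals between nerve and muscle. They were taken by symbol (Mbp, Pmp22, Prx, Mag, Sox10, S100b, Ngfr and Gdnf) from 24458 symbols in the count tables. The rule uses no measured level, but the 8 genes and all gene lists were chosen with earlier results of these data known. Each of the 8 passed the filter on low counts in every muscle and sex. The libraries came from diaphragm, gastrocnemius, soleus and tibialis anterior of untreated male and female C57BL/6J mice, an inbred strain, bought from a commercial breeder and housed for about 12 weeks before collection. Mice were 6, 12, 18, 21, 24 or 27 months old, which gave 48 groups of 6 to 10 libraries and 407 libraries in all, 203 from males and 204 from females. The question was how these genes differ between a respiratory and 3 limb muscles and how they change with age. All mice of an age were killed on a single day, so age and collection day cannot be told apart, and nothing in the labels says which muscles came from the same mouse.

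A myelinating Schwann cell lies along an axon and winds its own membrane into a compact sheath, in which Mbp (myelin basic protein) and Pmp22 (peripheral myelin protein 22) are structural components. Prx (periaxin) ties the outermost Schwann cell membrane to the basal lamina, and Mag (myelin-associated glycoprotein) sits at the membrane next to the axon. Sox10 is the transcription factor that keeps the lineage, and S100b is a calcium-binding protein widely used as a Schwann cell marker, terminal Schwann cells at the neuromuscular junction included. Ngfr, the p75 neurotrophin receptor, is low in myelinating cells and rises in cells that have lost their axon. Gdnf is a secreted survival factor for motor neurons, made in muscle and by Schwann cells, and is known to respond to loss of nerve contact.

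Levels are given as CPM, the read count of a gene relative to the scaled total of its library. The libraries held 38583802 to 300089909 reads assigned to genes, with a median of 72766895 and a next to highest total of 104836980. Muscle fibre transcripts (Acta1, Ckm, Des, Ttn) summed to 29740 CPM or more in every library, and slow fibre transcripts (Myh7, Tnnt1, Tnni1, Myl2) to 4042 CPM or more in each soleus library against at most 161 CPM in any tibialis anterior library. Mbp, Mag and Sox10 are also expressed by oligodendrocytes of the central nervous system. The summed level of 4 oligodendrocyte markers (Mog, Mobp, Olig2, Opalin) did not exceed 0.751 CPM in any library, and each had a median count of 0.

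Before the results, 6 diaphragm libraries need mention, because their whole expression profile stood apart. Their log2 CPM correlated at 0.792 to 0.874 with the median profile of the muscle over 13311 genes. They were replicate 2 at 6 months, replicate 0 at 21 months and replicate 0 at 27 months in females, and replicate 2 at 6 months, replicate 3 at 21 months and replicate 6 at 27 months in males. In 5 of the 6 the deviation from the median profile was correlated across 12507 genes with the GC content of the transcripts, at r between -0.585 and -0.799 (the exception, male replicate 3 at 21 months, gave 0.0272). Female replicate 3 at 24 months also had such a correlation, at -0.664. Its profile correlation was 0.94, so it stayed among the other 92, and leaving out the 6 does not remove it. Transcript GC content was 61.8% for Sox10, 58.6% for Ngfr, 57.7% for Prx and 57.6% for Mag, all at or above the 89.0th percentile of coding genes, against 48.3% to 51.0% for the other 4 genes. Prx had a median of 0.542 CPM in these 6 libraries and 3.93 CPM in the other 92 diaphragm libraries, and Sox10 had 0.154 against 1.34 CPM. Mbp ranged from 9.40 to 12.4 CPM in the 6 and from 13.3 to 36.9 CPM in the others. Pmp22 was higher, at a median of 64.8 against 46.0 CPM. Male replicate 3 at 21 months and replicate 6 at 27 months also held liver transcripts at 25560 and 10140 CPM in sum. Fitted differences and changes in the diaphragm that are printed below are therefore also given without the 6 libraries in some cases. These are the cases where that ended or made a call, turned a direction or moved a value by over 1.5 times. Not every diaphragm comparison is printed.

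Compared per kilobase of annotated exon over all 407 libraries, the sheath genes were the most abundant. Pmp22 had a median of 16.6 CPM per kilobase and Mbp 2.55, followed by Prx at 0.998, S100b at 0.672 and Sox10 at 0.626. The remaining genes were low, with Ngfr at 0.287, Gdnf at 0.250 and Mag at 0.135 CPM per kilobase. Reads were nearly always present at this depth: Mbp, Pmp22, Prx, S100b and Sox10 were detected in every library, whereas Mag had no read in 7 libraries, Ngfr in 4 and Gdnf in 1. A count of 0 in those libraries allows at most 0.0777 CPM (3 reads in the library's total, counting error only). In whole muscle a lower level can come from fewer Schwann cells or from less RNA per cell, and these cannot be told apart.

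**Figure D1:**
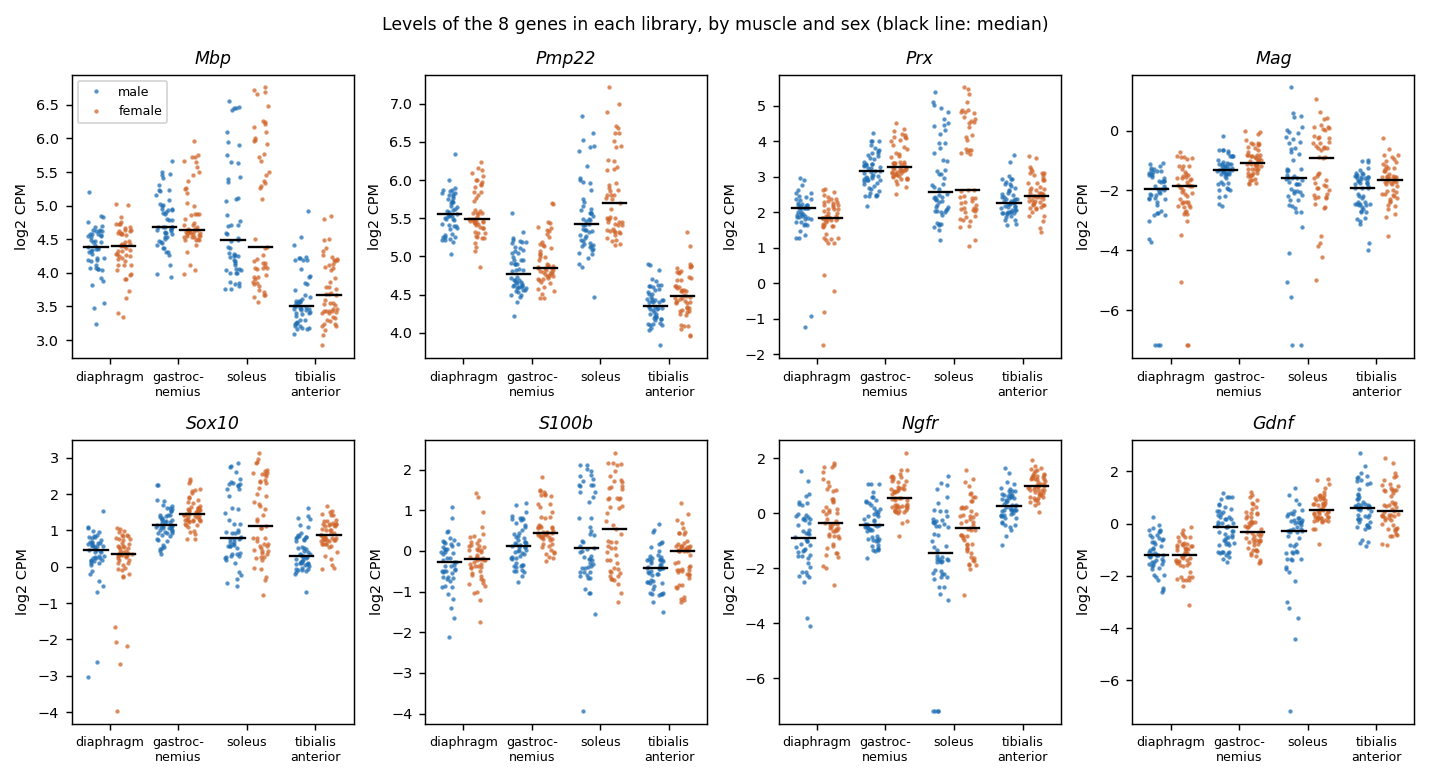
Level of each gene (log2 CPM, vertical axis) in every library by muscle and sex. Each point is a library and the black line is the group median. Soleus points of Mbp, Prx and Sox10 spread over a wider range than those of the gastrocnemius or tibialis anterior, a few diaphragm points of Prx and Sox10 lie far below the rest, and points at the bottom of the Mag, Ngfr and Gdnf panels are libraries with no read.

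A gene was called between muscles where the fold was over 1.5 and the edgeR adjusted p (quasi-likelihood test, Benjamini-Hochberg adjustment over all genes tested) was under 0.05, with the mean over the 6 ages compared. Of 96 comparisons (8 genes, 6 pairs of muscles, 2 sexes) 61 were called, whereas 37.3% of all comparisons over all genes were. The fits treated all libraries as independent, although different muscles may come from the same mice.

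The sheath genes did not share a single order. Mbp was lowest in the tibialis anterior, with a median of 11.3 CPM in males and 12.7 in females. Elsewhere male medians ran from 20.9 CPM (diaphragm) to 25.7 (gastrocnemius) and female medians from 20.8 (soleus) to 25.0 (gastrocnemius). The gastrocnemius exceeded the tibialis anterior by 1.09 on the log2 scale in males (edgeR adjusted p = 1.2e-19) and by 1.08 in females (edgeR adjusted p = 2.4e-14). Diaphragm minus tibialis anterior was 0.58 in both sexes, under the fold limit, and 0.83 in males and 0.62 in females without the 6 diaphragm libraries (edgeR adjusted p = 4.4e-13 and 2.4e-06), past it. Gastrocnemius and soleus were neighbours that differed by under 1.5-fold in Mbp, at -0.15 in males (edgeR adjusted p = 0.17) and -0.33 in females (edgeR adjusted p = 0.011). Both of these fitted values have the sign opposite to the difference between the medians. Diaphragm minus soleus was -0.66 in males and -0.83 in females (edgeR adjusted p = 2.1e-09 and 5.4e-10), both called. Without the 6 libraries it was -0.50 in males, under the fold limit, and -0.79 in females (edgeR adjusted p = 5e-06 and 4e-09). Diaphragm minus gastrocnemius was under the fold limit, at -0.51 in males (-0.32 without the 6 libraries) and -0.50 in females.

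Prx was instead lowest in the diaphragm. Its median was 4.29 CPM in male and 3.55 in female diaphragm, whereas gastrocnemius, the highest, had 8.90 and 9.55. Tibialis anterior (4.77 and 5.5) and soleus (5.98 and 6.16) lay between them by median. The fitted means did not place soleus below gastrocnemius. Gastrocnemius minus soleus was -0.09 in males and -0.19 in females, not past the limits (edgeR adjusted p = 0.55 and 0.24). Diaphragm minus gastrocnemius was -1.26 in males (edgeR adjusted p = 1e-15) and -1.60 in females (edgeR adjusted p = 3.1e-19), and without the 6 libraries it was -1.06 (edgeR adjusted p = 1.6e-12) and -1.52 (edgeR adjusted p = 8.1e-19). The difference from the tibialis anterior rested partly on those libraries in males, at -0.47 (edgeR adjusted p = 0.0012) with and -0.21 (edgeR adjusted p = 0.14) without them.

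Sox10 and Mag followed Prx, with the diaphragm below the gastrocnemius and the soleus in both sexes. Sox10 was lower in the diaphragm than in the gastrocnemius by -0.83 in males and -1.18 in females (edgeR adjusted p = 7.3e-10 and 2.2e-15), and by -0.63 and -1.10 without the 6 libraries (edgeR adjusted p = 6e-07 and 1e-15). For Mag the same comparison gave -0.76 in males, no longer past the fold limit at -0.56 without the 6 libraries (edgeR adjusted p = 0.00012 and 0.0032), and -0.89 in females. S100b was lower in the diaphragm than in the soleus, by -0.92 in males and -0.95 in females, and in the soleus it exceeded the tibialis anterior by 0.97 and 0.93 (edgeR adjusted p of 5.3e-10 or lower for all 4).

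Pmp22 ran the other way from Prx where the diaphragm was set against the gastrocnemius or the tibialis anterior. Between the limb muscles the fitted differences of these genes had the same sign. It was high in diaphragm (median 46.9 CPM in males, 44.9 in females) and soleus (42.8 and 51.9) and low in gastrocnemius (27.3 and 28.9) and tibialis anterior (20.5 and 22.4). Diaphragm minus gastrocnemius was 0.66 in males (edgeR adjusted p = 2.8e-21) and 0.65 in females (edgeR adjusted p = 5.3e-18), and without the 6 libraries 0.80 and 0.61. Expression of Pmp22 is not confined to Schwann cells, being known also in fibroblasts and endothelium. Diaphragm and soleus did not differ past the fold limit, at -0.10 in males (edgeR adjusted p = 0.10; 0.00 without the 6 libraries) and -0.28 in females (edgeR adjusted p = 4.8e-05).

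The trophic pair had its own pattern, with both genes highest in the tibialis anterior of males. Gdnf had a median of 1.51 CPM in male tibialis anterior, 0.905 in gastrocnemius, 0.814 in soleus and 0.430 in diaphragm, and in females 1.40, 0.788, 1.44 and 0.428. Diaphragm minus tibialis anterior was -1.96 in males (edgeR adjusted p = 1.2e-26) and -1.84 in females (edgeR adjusted p = 1.6e-38). In females soleus and tibialis anterior were not separated in Gdnf, with a difference of 0.00 (edgeR adjusted p = 1). Ngfr had a median of 1.19 CPM in male and 1.98 in female tibialis anterior but 0.360 and 0.675 in soleus, a difference of 1.26 and 1.38 on the log2 scale (soleus minus tibialis anterior -1.26 and -1.38, edgeR adjusted p = 1.6e-10 and 7.2e-18).

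Within the limb muscles Mbp, Prx, Pmp22 and Sox10 varied together from library to library. After the mean of each muscle, sex and age group was removed, Mbp and Prx correlated at 0.958 over 104 gastrocnemius libraries, 0.969 over 103 soleus libraries and 0.914 over 102 tibialis anterior libraries. Mbp and Pmp22 correlated at 0.941, 0.880 and 0.833 in the same muscles, and Prx and Sox10 at 0.808, 0.927 and 0.680. Mag was coupled less tightly in the tibialis anterior, at 0.398 with Mbp and 0.294 with Pmp22, against 0.748 and 0.736 in the gastrocnemius. These are correlations across libraries, in which both values come from the same library and share its depth, and they are given as a description.

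In the diaphragm the coupling was different. Over 98 diaphragm libraries Mbp and Prx correlated at 0.722, Prx and Sox10 at 0.870 and Mbp and Pmp22 at -0.174. Without the 6 libraries that stood apart these values were 0.360, 0.599 and 0.118. The plot of Prx and Pmp22 against Mbp shows 5 of the 6 libraries below all 92 others in Prx.

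**Figure D2:**
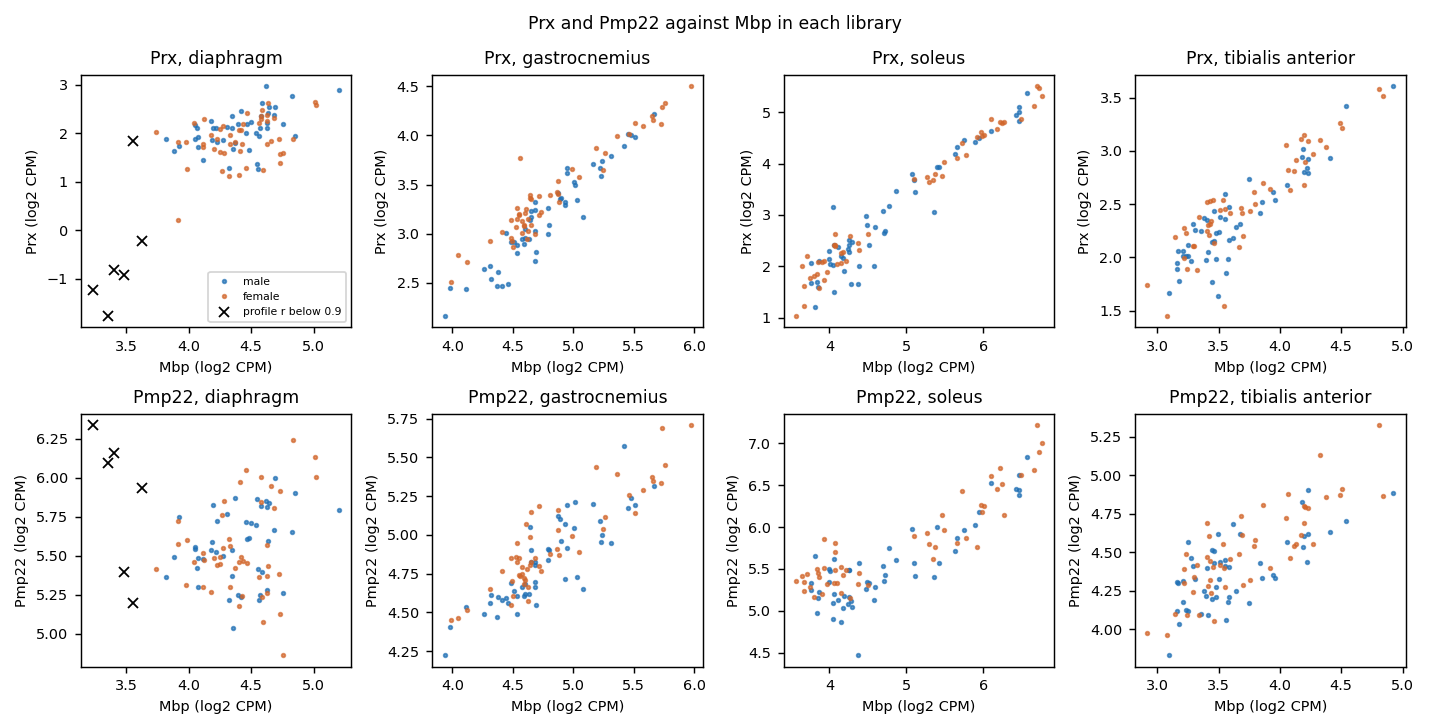
Prx (upper row) and Pmp22 (lower row) against Mbp in each library, all as log2 CPM, by muscle. Points are libraries, coloured by sex, and crosses are the 6 diaphragm libraries whose profile correlation was below 0.9. In limb muscles the points lie along a line, whereas in the diaphragm they form a cloud.

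Ngfr and Gdnf were coupled weakly to Mbp. Across the 3 limb muscles the correlation of Ngfr with Mbp was 0.192 to 0.369, and that of Gdnf with Mbp 0.0449 to 0.209. The pair correlated with each other at 0.211 to 0.511 in these muscles and at -0.0644 in the diaphragm.

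The genes most like each member, among 14182 genes tested in all 8 fits, are given next (Pearson correlation of log2 CPM after removing group means, 407 libraries, a description). The 3 genes most like Mbp included Prx (0.896) and Cldn19 (0.858), a tight junction protein of the sheath, and those most like Prx included Mbp and Kif1a (0.879). Those most like Pmp22 included Drp2 (0.790) and Gatm (0.766), and those most like S100b included Ugt8a and Drp2. Sox10 was most like Prx, Plekha4 and Aatk, and Mag most like Prx, Sox10 and Plekha4. Ngfr was most like Irf8 (0.606), Plcg2 and Cyp4f18, none of them a sheath gene, and Gdnf had no close companion, with Zim1 first at 0.488. For these 2 genes Spearman's rho was lower than Pearson's r, at 0.428 for Ngfr with Irf8 and 0.242 for Gdnf with Zim1.

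For every gene but Gdnf and Ngfr, the spread within an age was widest in the soleus in both sexes. The SD of log2 CPM within an age, as the median over the 6 ages, was 1.12 for Prx in male and 1.21 in female soleus, against 0.41 and 0.46 in gastrocnemius. For Mbp it was 0.79 and 0.95 in soleus against 0.34 and 0.45. For Gdnf in females it was 0.49 in soleus against 0.52 in tibialis anterior, and for Ngfr in females 0.81 in soleus against 0.93 in diaphragm.

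Each older age was then compared with 6 months within a muscle and sex, with the same limits (fold over 1.5 and edgeR adjusted p under 0.05). Among the 64 combinations of gene, muscle and sex, 14 were called at 1 or more older ages, against 7.55% of combinations over all genes. In all, 29 of 320 age comparisons were called, 20 of them higher with age (1.67% of all gene comparisons were called higher) and 9 lower (0.845% over all genes). Gdnf accounted for 13 of the 20 and Ngfr for 6, and all 9 that were lower were in female soleus. The 5 older ages share the 6-month libraries as controls, so the comparisons of a gene in a muscle are not independent of each other.

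**Figure D3:**
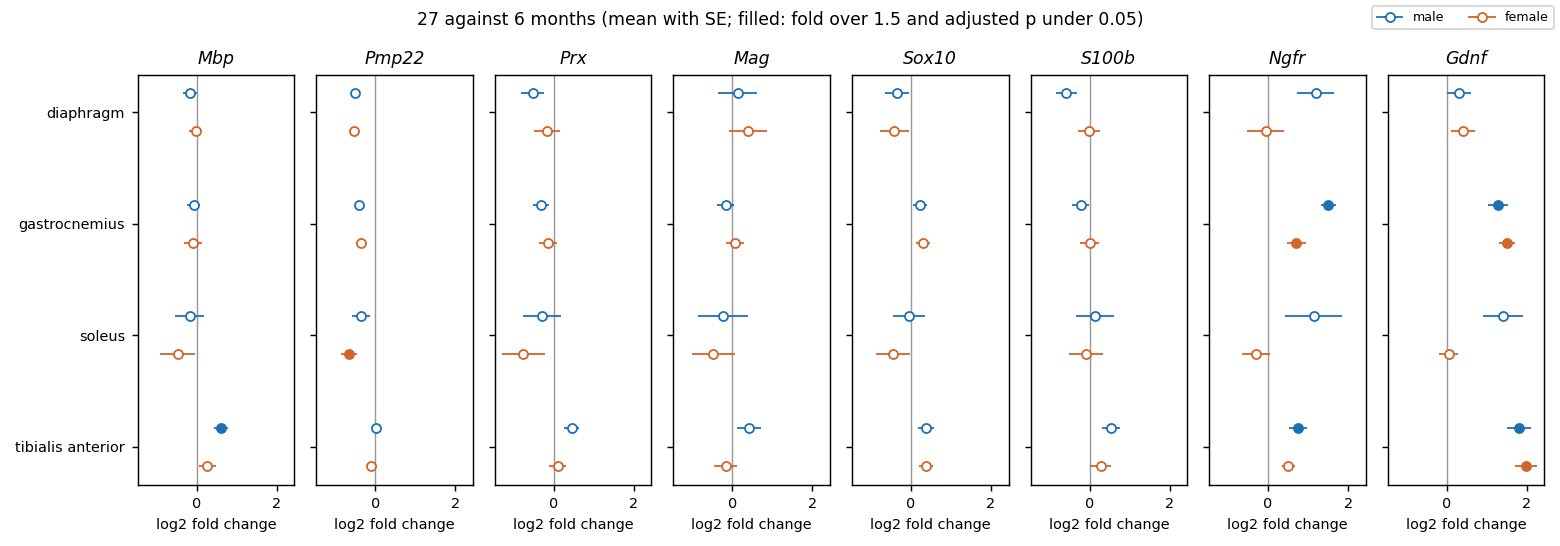
Log2 fold change between 27 and 6 months for each gene (panels), muscle and sex, with its SE. Filled symbols passed both limits. In gastrocnemius and tibialis anterior Gdnf and Ngfr lie to the right of 0 in both sexes, in female soleus Gdnf lies at 0.05 and Ngfr at -0.29, and the only filled symbol to the left of 0 is Pmp22 in female soleus.

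Gdnf gave the clearest age effect. In female gastrocnemius it ranged from 0.412 to 0.944 CPM at 6 months (median 0.492, n = 8) and from 0.905 to 2.31 at 27 months (median 1.70, n = 10). In males it went from 0.356 to 0.941 (median 0.573, n = 8) to 0.739 to 2.24 (median 1.31, n = 10). In both sexes every 27-month library was above the 6-month mean, and the groups overlapped at their edges.

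The fitted change in gastrocnemius at 27 months was 1.51 ± 0.20 (log2, SE) in females (edgeR adjusted p = 4.9e-08) and 1.29 ± 0.25 in males (edgeR adjusted p = 0.00012). It was already called at 21 months, at 0.80 in females (edgeR adjusted p = 0.0042) and 1.16 in males (edgeR adjusted p = 0.0023), and at 24 months, at 0.89 and 0.97 (edgeR adjusted p = 0.00074 and 0.0057). At 12 and 18 months medians stayed between 0.511 and 0.671 CPM in both sexes, and no change was called. When runs of consecutive sample numbers were added as a term, the male value at 24 months kept its size (0.98) but not its call (edgeR adjusted p = 0.068).

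Gdnf also rose in the tibialis anterior. Female libraries ranged from 0.565 to 1.22 CPM at 6 months (median 0.786) and from 2.27 to 5.74 at 27 months (median 2.84), with no overlap. Male libraries ranged from 0.549 to 1.12 CPM (median 0.889) and from 1.04 to 6.58 (median 2.92), with a small overlap. The change was 1.99 ± 0.27 in females (edgeR adjusted p = 3.3e-07) and 1.80 ± 0.30 in males (edgeR adjusted p = 2.3e-05), and it was also called at 21 and 24 months in both sexes, at 0.98 to 1.35. The difference from the change in gastrocnemius did not pass, at 0.45 in females and 0.49 in males (edgeR interaction test, adjusted p = 0.83 and 1). An exact two-sided permutation test of the 27-month difference gave p = 2.29e-05 in females, the smallest this test can give, and p = 0.000457 in males, both unadjusted among 64 such tests, 17 of which fell under 0.05.

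In the soleus the ranges of the sexes did not overlap at 6 months, males being lower. Male soleus had 0.0994 to 0.869 CPM at 6 months (median 0.346) and 0.0742 to 2.14 at 27 months (median 0.942), whereas female soleus had 1.09 to 3.22 (median 1.52) and 0.862 to 3.27 (median 1.70). The male change was called at 24 months only, at 1.72 ± 0.51 (edgeR adjusted p = 0.040). That call was lost with limma-voom (adjusted p = 0.087), with the run of sample numbers as a term (edgeR adjusted p = 0.51) and when any of 9 of 18 libraries was left out (6-month replicates 1 to 7, 24-month replicates 6 and 8, with values of 1.51 to 1.74). At 27 months the male value was 1.41 ± 0.51 (edgeR adjusted p = 0.13) and the female value 0.05 ± 0.23 (edgeR adjusted p = 0.91).

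The female soleus differed from the female gastrocnemius in its age change, by -1.46 (edgeR interaction test, adjusted p = 0.0043). This was the only call among 48 such muscle by age comparisons, where 2.22% were called over all genes. In the diaphragm Gdnf changed by 0.31 ± 0.30 in males (95% interval -0.27 to 0.89) and 0.41 ± 0.29 in females (-0.16 to 0.99) and was not called at any age. Without the 6 libraries that stood apart the values were 0.20 and 0.63 (edgeR adjusted p = 0.69 and 0.25).

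Over all 6 ages the slope of Gdnf on age passed an edgeR adjusted p of 0.05 in 5 of 8 combinations, and 11 of 64 slopes did over the 8 genes against 20.9% over all genes. From 6 to 27 months the fitted slope came to 1.51 ± 0.19 in female and 1.41 ± 0.22 in male gastrocnemius, 1.68 ± 0.24 and 1.58 ± 0.26 in tibialis anterior, and 1.53 ± 0.45 in male soleus. Curves were fitted as a description. In female gastrocnemius a logistic curve with its midpoint at 24.0 months was preferred, on the logarithm of age and on age in months. In male gastrocnemius a logistic curve with its midpoint at 18.5 months was preferred on the logarithm of age and a straight line on age in months, and a straight line was preferred in the tibialis anterior of both sexes and in male soleus.

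**Figure D4:**
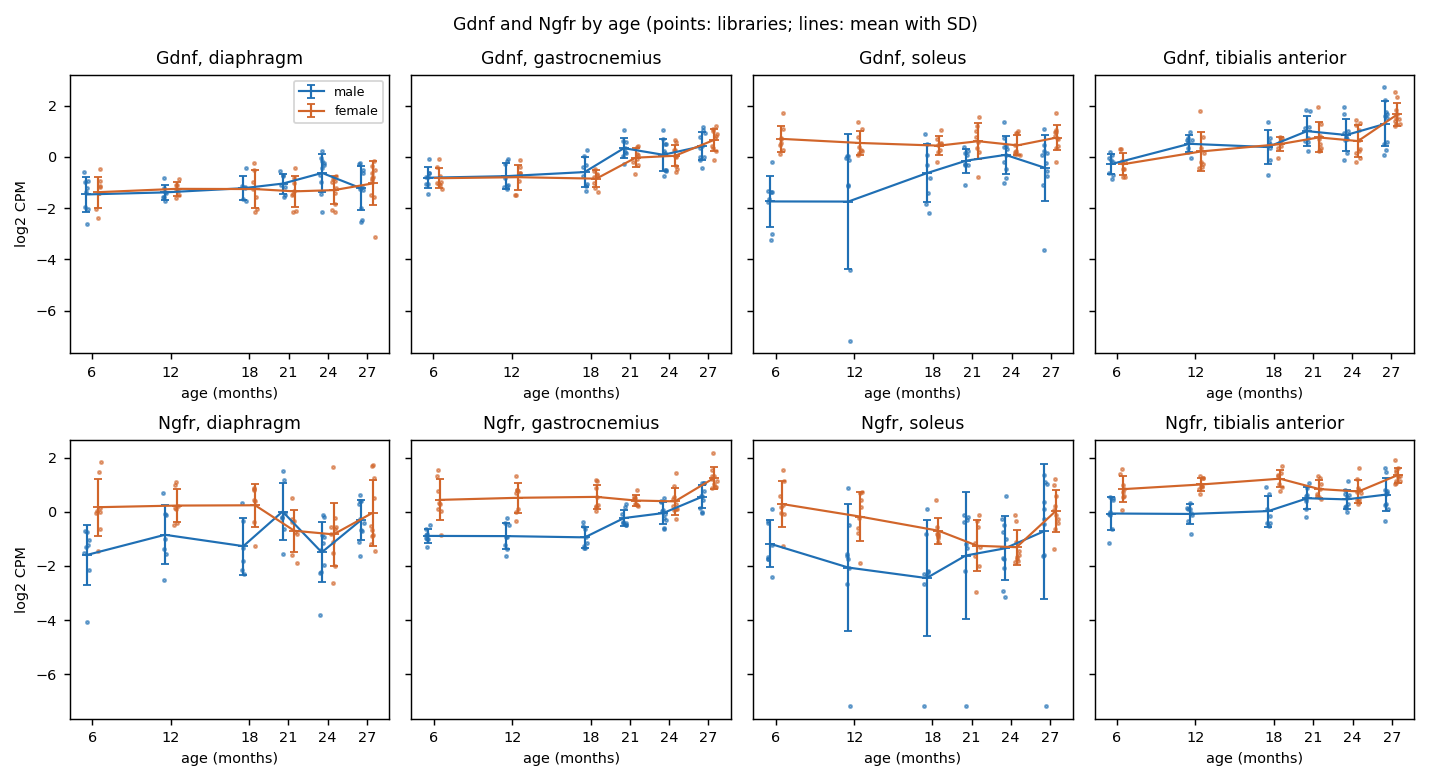
Gdnf (upper row) and Ngfr (lower row) by age in months, as log2 CPM, in each muscle. Points are libraries, lines join the group means and bars are SD. Gdnf climbs in gastrocnemius and tibialis anterior of both sexes and shows no such climb in the diaphragm or in female soleus, and points at the bottom of the soleus panels are male libraries with no read.

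Ngfr rose late in the gastrocnemius. Male libraries ranged from 0.395 to 0.707 CPM at 6 months (median 0.524) and from 0.962 to 2.07 at 27 months (median 1.5), so the groups did not overlap. Female libraries ranged from 0.553 to 2.93 (median 1.23) and from 1.82 to 4.57 (median 2.27), and these overlapped. At 21 and 24 months the male median was 0.751 and 0.971 CPM and the female median 1.3 and 1.19.

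The male change was 0.68 ± 0.20 at 21 months (edgeR adjusted p = 0.018), 0.89 ± 0.19 at 24 months (edgeR adjusted p = 0.0007) and 1.51 ± 0.19 at 27 months (edgeR adjusted p = 4e-08). With the run of sample numbers as a term the 24-month value was 0.54 (edgeR adjusted p = 0.22). Of the male 27-month libraries 6 lay in a run with 2 male libraries of 6 months, and 4 in a run without any. For Gdnf as for Ngfr, run and age can therefore not be fully told apart in male gastrocnemius. In females a call was reached at 27 months only, at 0.71 ± 0.23 (edgeR adjusted p = 0.019). The highest female library, replicate 0 with 4.57 CPM, had a profile whose deviation was correlated with GC content at 0.658, and with each library left out in turn the difference in means kept between 0.63 and 0.97 with an exact permutation p of 0.0207 or lower. A curve fit on the logarithm of age placed the midpoint of the rise at 24.8 months in males, and in females at 27.0 months, the oldest age and the edge of the ages searched, so that no midpoint was located.

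Ngfr was also called in the tibialis anterior of males. Male libraries ranged from 0.443 to 1.44 CPM at 6 months (median 0.960) and from 0.775 to 3.10 at 27 months (median 1.61). Female libraries ranged from 1.03 to 2.97 (median 1.72) and from 2.05 to 3.79 (median 2.48), with wide overlap in both sexes. The male change of 0.74 ± 0.23 was called (edgeR adjusted p = 0.019), and the female change of 0.50 ± 0.17 was under the fold limit (edgeR adjusted p = 0.024). The difference from the change in gastrocnemius did not pass, at -0.79 in males and -0.23 in females (edgeR interaction test, adjusted p = 1 and 0.97). The male call was lost without 27-month replicate 6 or 8 or 6-month replicate 0 (values 0.60 to 0.63, edgeR adjusted p = 0.050 to 0.060) and with the run of sample numbers as a term (0.33, edgeR adjusted p = 0.43).

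In the diaphragm Ngfr was called in males at 21 months, at 1.68 ± 0.49 (edgeR adjusted p = 0.026). Libraries ranged from 0.0522 to 0.601 CPM at 6 months (median 0.411, n = 8) and from 0.331 to 2.88 at 21 months (median 0.876, n = 7), and the groups overlapped. Without the libraries that stood apart the value was 1.32 (edgeR adjusted p = 0.11). Leaving out replicate 3, the library with liver transcripts, gave 1.49 (edgeR adjusted p = 0.097), and leaving out replicate 4 gave 1.34 (edgeR adjusted p = 0.088). At 27 months libraries ranged from 0.318 to 1.55 CPM (median 0.785, n = 10), and the change of 1.19 ± 0.46 was not called (edgeR adjusted p = 0.093). It was 1.12 without the libraries that stood apart (edgeR adjusted p = 0.086) and was called without the libraries with liver transcripts, at 1.27 (edgeR adjusted p = 0.0465). The exact two-sided permutation test of the 27-month difference gave p = 0.00439, unadjusted, and 0.0122 or lower with each library left out in turn. The summed level of 6 lymphocyte markers, Cd3e of T cells and Ms4a1 of B cells among them, ranged from 8.00 to 43.2 CPM at 6 months and from 3.03 to 331 CPM at 21 months in these libraries, and its part in the result was not tested.

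Genes of denervated muscle were higher in gastrocnemius and tibialis anterior, in which Gdnf rose, and also in soleus. Their relation to Gdnf was not tested. The list of these genes was chosen with earlier results of these data known, so its counts are a description. Of 9 genes known to rise in denervated muscle, 8 were called higher at 27 months in female gastrocnemius, 7 in male gastrocnemius and 8 in the tibialis anterior of each sex, where 4.08% (female) and 3.88% (male) of all genes were called higher in gastrocnemius and 5.93% (female) and 2.81% (male) in tibialis anterior. Runx1, a transcription factor that muscle raises without its nerve, changed by 1.95 in female and 2.16 in male gastrocnemius and by 2.30 and 1.92 in tibialis anterior, and Chrng, the fetal acetylcholine receptor subunit, by 4.22, 4.35, 5.65 and 3.36 (all with an edgeR adjusted p of 0.00033 or lower). Of these, 0 were called in female diaphragm and 3 in male diaphragm (0.543% and 4.16% of all genes), counts that were also 0 and 3 without the libraries that stood apart (0.681% and 5.09%), and 6 in female and 5 in male soleus (1.72% and 0.808%), although Gdnf was not called at 27 months in either sex.

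Other lists moved in the same libraries. In female gastrocnemius at 27 months 3 of 4 slow fibre genes (sums of 451 to 783 CPM at 6 and 741 to 1510 CPM at 27 months), 1 of 7 macrophage and 1 of 6 lymphocyte markers were higher and 2 of 7 fibroblast markers lower (0.898% of all genes were called lower). Lymphocyte sums there were 0.349 to 0.918 and 1.08 to 4.39 CPM, which did not overlap, and fibroblast sums 1079 to 1404 and 638 to 1738 CPM. In female tibialis anterior at 27 months 4 of 7 macrophage markers, 2 of 5 tested lymphocyte markers and 5 of 6 liver transcripts were higher, with macrophage sums of 28.9 to 58.0 CPM at 6 and 43.3 to 115 CPM at 27 months, and liver sums of 0.147 to 18.4 and 0.806 to 551 CPM. Lymphocyte sums there were 0.312 to 0.977 and 0.420 to 9.71 CPM. In the same groups 2 of 4 slow fibre genes and 3 of 9 adipocyte genes were higher, and 2 of 4 satellite cell genes and 2 of 7 fibroblast markers lower (1.08% over all genes). In male tibialis anterior 4 of 7 fibroblast markers and 2 of 4 satellite cell genes were lower, against 1.29% over all genes, with fibroblast sums of 823 to 1272 CPM at 6 and 399 to 811 CPM at 27 months, and 1 of 4 tested lymphocyte markers was higher. In male gastrocnemius 2 of 4 slow fibre genes, 1 of 5 tested lymphocyte markers and 1 of 7 macrophage markers (Cd68) were higher, and 3 of 7 fibroblast markers and 1 of 4 satellite cell genes were lower (1.53% over all genes), with fibroblast sums of 1186 to 1455 CPM at 6 and 619 to 964 CPM at 27 months. Their part in the changes of Gdnf and Ngfr was not tested.

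The results on Gdnf and Ngfr make their promoters worth showing side by side. The 250 bases before each annotated start are printed 5′ to 3′ on the strand of the gene, from RefSeq on GRCm38.p6, which carries the same coordinates as the mm10 build named for the files. Gdnf has 2 annotated starts, at chr15:7809798-7810047 and chr15:7813477-7813726 (plus strand), and Ngfr has 1, at chr11:95587699-95587948 (minus strand). Capitals mark a match, on either strand, to any of 4 motifs searched: ACAAAG for SOX factors, GTGGGCG for EGR factors, CAGCTG as an E-box, and TGTGGT for RUNX factors, of which none contains another.
Gdnf, first start: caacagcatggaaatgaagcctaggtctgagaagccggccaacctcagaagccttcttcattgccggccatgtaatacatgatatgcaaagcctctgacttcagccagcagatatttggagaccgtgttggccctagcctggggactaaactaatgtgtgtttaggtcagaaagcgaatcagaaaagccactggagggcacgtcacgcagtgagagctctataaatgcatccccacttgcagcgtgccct
Gdnf, second start: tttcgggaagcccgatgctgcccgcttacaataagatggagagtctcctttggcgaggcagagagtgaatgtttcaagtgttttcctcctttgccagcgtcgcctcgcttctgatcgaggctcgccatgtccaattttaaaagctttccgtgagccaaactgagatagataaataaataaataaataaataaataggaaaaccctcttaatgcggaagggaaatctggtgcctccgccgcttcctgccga
Ngfr: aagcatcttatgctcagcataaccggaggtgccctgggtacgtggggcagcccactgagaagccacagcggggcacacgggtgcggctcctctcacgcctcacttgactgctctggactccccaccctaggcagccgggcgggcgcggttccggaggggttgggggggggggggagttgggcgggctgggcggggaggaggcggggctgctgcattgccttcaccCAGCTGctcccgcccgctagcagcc
Ngfr held a single E-box and the Gdnf windows held none of the 4 motifs. Over 32536 windows of this length the E-box occurred in 13.1%, the SOX letters in 16.5%, the RUNX letters in 14.0% and the EGR letters in 7.05%. Among the other members with an entry, the RUNX letters were in 2 of 4 Pmp22 windows and 1 of 3 Mag windows, the SOX letters at 1 site that 2 overlapping windows of the 3 of Mag share, and the Prx and S100b windows held none. A match or its absence describes these letters only.

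In the female soleus, by contrast, sheath and lineage genes were lower at 21 and 24 months. Prx ranged from 4.58 to 45.6 CPM at 6 months (median 24.6, n = 8), from 3.04 to 22.9 at 21 months (median 4.39, n = 8) and from 2.04 to 28.0 at 24 months (median 4.2, n = 9). Sox10 had medians of 4.98, 1.22 and 1.44 CPM, and Mbp of 60.6, 15.8 and 15.7 CPM. Ranges overlapped for each of these genes, since some 6-month libraries were as low as the later ones and some later ones were high.

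**Figure D5:**
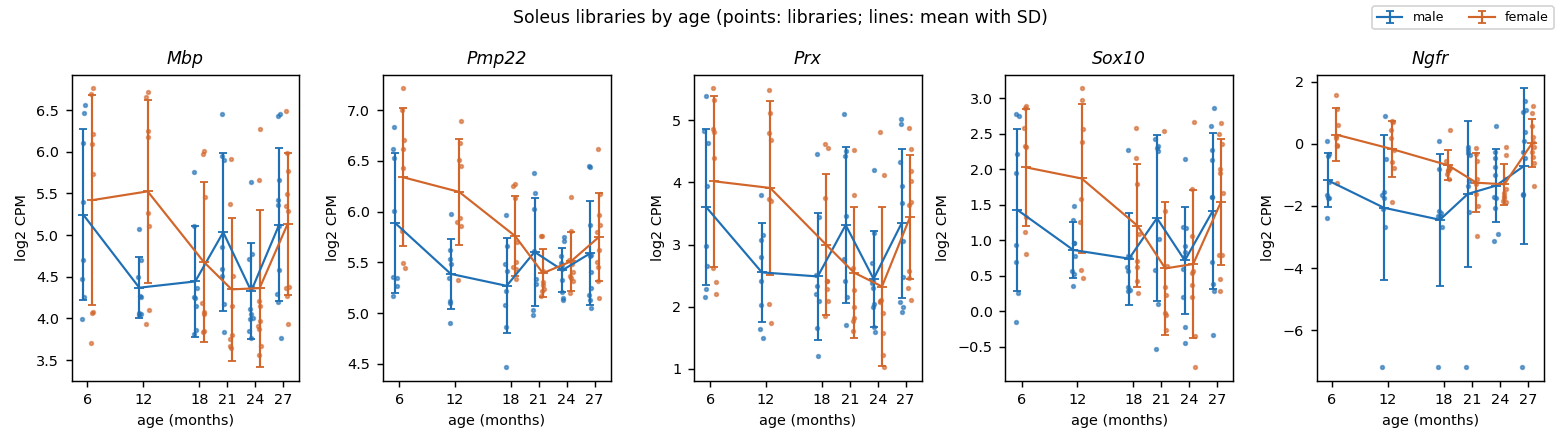
Mbp, Pmp22, Prx, Sox10 and Ngfr in soleus by age in months, as log2 CPM. Points are libraries, lines join the group means and bars are SD. In females the means of Prx are 4.02 at 6 months, 2.32 at 24 months and 3.44 at 27 months, within bars that overlap throughout.

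The change of Prx was -1.55 ± 0.58 at 21 months and -1.57 ± 0.56 at 24 months (edgeR adjusted p = 0.046 and 0.035), and that of Sox10 -1.29 ± 0.46 and -1.19 ± 0.44 (edgeR adjusted p = 0.036 and 0.043). Mbp did not pass, at -1.23 ± 0.48 and -1.14 ± 0.46 (edgeR adjusted p = 0.056 and 0.066). By 27 months none of these was called, with Prx at -0.76 and Sox10 at -0.44. These calls lay near the limit on adjusted p. Of the 25 libraries of 6, 21 and 24 months left out in turn, the 21-month Prx call was lost without 11 (21-month replicates 0, 1, 2, 4, 6 and 7, 6-month replicates 0, 1, 2, 5 and 6, edgeR adjusted p up to 0.112) and the 24-month call without 11 (24-month replicates 0, 1, 3, 4, 6, 7 and 8, 6-month replicates 0, 1, 5 and 6, up to 0.0964). The Sox10 calls were lost without 10 (21-month replicates 0, 1, 2, 4, 6 and 7, 6-month replicates 0, 1, 2 and 6, up to 0.0787) and 12 (24-month replicates 0, 1, 3, 4, 6, 7 and 8, 6-month replicates 0, 1, 2, 5 and 6, up to 0.0975). The change itself stayed between -2.03 and -1.32 for Prx at 21 months and between -2.13 and -1.33 at 24 months, and between -1.79 and -1.15 and between -1.62 and -1.06 for Sox10.

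Pmp22 and Ngfr also fell in these groups. Pmp22 ranged from 43.6 to 149 CPM at 6 months (median 92.1), from 36.0 to 54.2 at 21 months (median 39.3), from 36.8 to 70.6 at 24 months (median 42.4) and from 35.6 to 98.4 at 27 months (median 52.5). Its change was -1.07 ± 0.22, -0.94 ± 0.21 and -0.66 ± 0.20 (edgeR adjusted p = 0.00027, 0.00066 and 0.016). Every library at 21 and 24 months was below the 6-month mean. The 27-month call was lost without 6-month replicate 1 (-0.51, edgeR adjusted p = 0.071) and, by the fold limit, without 6-month replicate 6 (-0.57).

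Ngfr ranged from 0.413 to 2.93 CPM at 6 months (median 1.15), 0.121 to 0.904 at 21 months (median 0.424) and 0.266 to 0.925 at 24 months (median 0.323). The change was -1.53 ± 0.38 and -1.68 ± 0.37 (edgeR adjusted p = 0.0025 and 0.0006), and it kept its call with every library left out in turn. At 27 months libraries ranged from 0.378 to 2.33 CPM (median 0.978), and the difference from 6 months was -0.29 ± 0.35 (edgeR adjusted p = 0.61). So Ngfr was lower than at 6 months in female soleus at the same ages at which it was higher in male gastrocnemius, a difference between these groups that was not tested.

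Other myelin genes in the list moved the same way in female soleus. Of 16 tested myelin genes other than the 8, 7 were called lower at 21 months and 7 at 24 months and 0 higher, with median changes of -1.14 and -1.13 against -0.03 and -0.03 (log2) over all genes, and 3.73% of all genes were called lower at these ages. Ugt8a, an enzyme of myelin galactolipid synthesis, changed by -2.24 and -1.77. Egr2, the transcription factor that switches on myelination, changed by -1.18 and -0.91, and it was among 2 of 13 lineage genes lower at 21 and 4 of 13 lower at 24 months. Fibroblast markers moved in these libraries too: 6 of 7 were lower at 21 and 5 of 7 at 24 months, with sums of 1212 to 2166 CPM at 6 months, 747 to 1077 at 21 and 661 to 1417 at 24 months. The sum of the 4 muscle fibre transcripts was 121600 to 163100 CPM at 6 months, 166800 to 219400 at 21 months, with no overlap, and 159300 to 246000 at 24 months, while 0 of the 4 were called (edgeR). Krt10, the only 1 of 3 epithelium markers tested there, changed by -4.84 at 21 and -5.26 at 24 months (edgeR adjusted p = 0.00019 and 3.6e-05). It was still lower at 27 months, by -5.35. Myh4, a fast fibre gene, changed by -3.31 at 21 months (edgeR adjusted p = 0.022). The part of these genes and lists in the result was not tested.

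In male soleus Mbp, Pmp22, Prx, Sox10 and Ngfr were not called at any older age. Of the 16 other myelin genes 3 were called there at 1 or more older ages, counted in either direction (2.85% over all genes). In female soleus 8 of the 16 were, counted in the same way (8.52% over all genes). Mbp came closest, at -1.11 ± 0.36 at 24 months (edgeR adjusted p = 0.059). Pmp22 was -0.34 ± 0.23 at 21 months and -0.60 ± 0.22 at 24 months there (edgeR adjusted p = 0.63 and 0.11). No gene of the 8 passed the test of a difference between the sexes in the change from 6 to 27 months (0 of 32 by edgeR, against 1.02% over all genes). At an unadjusted p under 0.05 there were 2, Ngfr in gastrocnemius and Gdnf in soleus (edgeR adjusted p = 0.15 and 0.19), and that contrast does not cover 21 or 24 months.

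Pmp22 was lower with age in the diaphragm as well, by less than the fold limit. Male diaphragm ranged from 52.8 to 80.8 CPM at 6 months (median 57.4) and from 37.2 to 58.3 at 27 months (median 41.6), and female diaphragm from 44.3 to 75.7 (median 63.5) and from 29.1 to 71.5 (median 41.3). Ranges overlapped, but 0 of 10 male and 1 of 10 female libraries at 27 months exceeded the 6-month mean. The change was -0.49 ± 0.10 in males (edgeR adjusted p = 0.0033) and -0.52 ± 0.13 in females (edgeR adjusted p = 0.018). Without the libraries that stood apart it was -0.43 in males (edgeR adjusted p = 0.0042) and -0.62 in females (edgeR adjusted p = 0.00071), the latter past the fold limit.

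Over all muscles Pmp22 reached an edgeR adjusted p under 0.05 at any fold in 11 of 40 age comparisons, where 8.17% of all gene comparisons did. Its fitted slope from 6 to 27 months was -0.44 ± 0.09 in male and -0.55 ± 0.10 in female diaphragm and -0.87 ± 0.18 in female soleus, and a straight line was the preferred curve in all 3. In male gastrocnemius the change at 27 months was -0.39 ± 0.11 (edgeR adjusted p = 0.0044) and in female -0.35 ± 0.14 (edgeR adjusted p = 0.051). The tibialis anterior value was 0.03 ± 0.11 in males (95% interval -0.18 to 0.24) and -0.10 ± 0.14 in females (-0.37 to 0.17).

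Other myelin genes fell in male diaphragm at 27 months. Of 16 tested, 5 were called lower and 1 higher, where 1.44% of all genes were called lower and 4.16% higher. Without the libraries that stood apart 3 were called lower and 1 higher (2.91% and 5.09%). Drp2, the partner of Prx in the Schwann cell membrane, changed by -0.61 (edgeR adjusted p = 0.002), and by -0.54, under the fold limit, without those libraries, and Nfasc, an adhesion molecule of the node, was higher by 1.09. Prx was called only when the libraries that stood apart were left out, at -0.60 ± 0.18 (edgeR adjusted p = 0.022). The lymphocyte sum in the same groups was 8.00 to 43.2 CPM at 6 months and 1.18 to 173 CPM at 27 months, with 3 of 6 markers called higher, and its part in the result was not tested. Of the same 16 myelin genes, 3 were called higher and 0 lower in female tibialis anterior at 27 months (5.93% and 1.08% over all genes). In female gastrocnemius 1 was higher and 0 lower (4.08% and 0.898%), and in male gastrocnemius 0 and 1 (3.88% and 1.53%). At that age 0 of the 16 were called in female diaphragm, male tibialis anterior and soleus of both sexes. Over all genes 1.24%, 4.1%, and 1.19% (male) and 4.13% (female) were called there.

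In male tibialis anterior Mbp was higher at 27 months. Libraries ranged from 9.01 to 18.7 CPM at 6 months (median 11) and from 8.54 to 30.4 at 27 months (median 16.1), with full overlap at the low end and 9 of 10 above the 6-month mean. The change of 0.62 ± 0.18 (edgeR adjusted p = 0.011) lay just over the fold limit and fell below it without any of 6 of the 18 libraries (6-month replicates 2, 5 and 6, 27-month replicates 0, 6 and 8, values 0.49 to 0.58) and with limma-voom (0.56). With the run of sample numbers as a term it was 0.42 (edgeR adjusted p = 0.17). S100b in the same muscle had a difference in means of 0.49 at 27 months (exact two-sided permutation p = 0.0266, unadjusted) and an edgeR adjusted p of 0.074.

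Mag and S100b were not called at any age in any muscle or sex (edgeR, 0 of 40 comparisons each). At 27 months the change of Mag ranged from -0.47 ± 0.54 in female soleus to 0.42 ± 0.30 in male tibialis anterior, and that of S100b from -0.58 ± 0.26 in male diaphragm to 0.54 ± 0.22 in male tibialis anterior. In gastrocnemius the 95% intervals of S100b were -0.64 to 0.19 in males and -0.48 to 0.48 in females. Sox10 and Prx were called in no muscle but female soleus in the comparisons with all libraries.

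Females had more Ngfr than males. Averaged over the 6 ages the difference was 1.05 ± 0.09 in gastrocnemius (edgeR adjusted p = 8.7e-19), 0.78 ± 0.20 in diaphragm (edgeR adjusted p = 0.0034), 0.73 ± 0.08 in tibialis anterior (edgeR adjusted p = 2.8e-12) and 0.53 ± 0.23 in soleus (edgeR adjusted p = 0.064). Without the libraries that stood apart the diaphragm value was 0.82 (edgeR adjusted p = 0.0011). Gdnf was called in soleus only, by 1.07 ± 0.16 (edgeR adjusted p = 3.1e-08), with males lower. These made 4 called of 32 comparisons, where 5.64% were called over all genes.

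Under the fold limit, further genes were higher in females of the limb muscles. In gastrocnemius S100b differed by 0.47 ± 0.10 and Sox10 by 0.34 ± 0.07 (edgeR adjusted p = 1.8e-05 and 3.7e-05), and in tibialis anterior Sox10 by 0.48 ± 0.08 and S100b by 0.34 ± 0.10 (edgeR adjusted p = 5.5e-07 and 0.0034). The difference in Mbp did not pass the test there, at 0.12 ± 0.08 and 0.16 ± 0.08 (edgeR adjusted p = 0.22 and 0.11).

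Few of the listed partners of these pathways were called at 27 months. Of the receptors and ligands of the GDNF and neurotrophin families, Ret, the signalling receptor of Gdnf, was lower in male gastrocnemius at 27 months by -0.65 (edgeR adjusted p = 0.00012), and it was the only 1 of 16 tested that was called there at that age, whereas 5 of 16 were called at 1 or more older ages (8.06% over all genes). In female gastrocnemius 1 of 16 was called at 27 months, higher. Over all genes 1.53% were called lower in male and 4.08% higher in female gastrocnemius at that age. Ntrk2, a neurotrophin receptor, was lower by -0.72 in male diaphragm and -0.60 in male tibialis anterior (edgeR adjusted p = 0.0013 and 0.0014), and Ntrk3 was higher by 0.69 in the latter. In male diaphragm 2 of 17 listed receptors and ligands were called lower at 27 months, and 4 without the libraries that stood apart (1.44% and 2.91% over all genes). Gfra3 and Ntf3 were among the 4, at -0.88 and -0.94 (edgeR adjusted p = 0.022 and 0.013). In female soleus and tibialis anterior the single calls at 27 months were Gfra4 at 0.72 and Cntfr at 0.76, and in female soleus Gfra1, a co-receptor of Gdnf, was lower by -0.65 at 21 and -0.72 at 24 months (edgeR adjusted p = 0.0015 and 0.00028). Of the genes of Schwann cells responding to nerve injury, Shh was higher in gastrocnemius, by 3.08 in males and 3.07 in females (edgeR adjusted p = 8.1e-05 and 0.00025). It was the only 1 of 9 tested that was called there at 27 months. At any older age 2 of 9 were called in male gastrocnemius. Bdnf was lower in male diaphragm by -0.70. Among axon genes Uchl1 and Tubb3 were higher in gastrocnemius of both sexes, by 1.27 to 1.67 (2 of 3 tested in males and 2 of 4 in females). In gastrocnemius at 27 months 3.88% of all genes were called higher in males and 4.08% in females. Elsewhere at that age 2 of 6 tested axon genes were higher in male diaphragm and 0 of 6 in female diaphragm (4.16% and 0.543% over all genes). In soleus 1 of 5 was higher in each sex (0.808% in males, 1.72% in females), and in tibialis anterior 1 of 4 (2.81% and 5.93%). Cdh19, a cadherin of immature Schwann cells, was lower in male diaphragm by -0.96 (edgeR adjusted p = 0.0021) and higher in tibialis anterior by 0.60 in males and 0.83 in females (edgeR adjusted p = 0.010 and 0.00018).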

How the data were processed

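Strand-specific libraries of total RNA depleted of ribosomal RNA were sequenced, and the authors deposited raw read counts per gene for each library, made against the mm10 genome with a gene model derived from RefSeq, whose version the sources used here do not state. Of 25091 rows, 633 further rows of a repeated symbol, with 0.0335% of counts, were left out.

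Counts were fitted with edgeR 4.0.16 (quasi-likelihood, TMM, default low count filter) in R 4.3.3, for each muscle and sex with age as a factor, across all 14487 to 16193 genes tested. Alternatives used limma-voom 3.58.1 and DESeq2 1.42.0. Calls needed a fold over 1.5 and an adjusted p under 0.05. The SE of a log2 fold change was taken from the test statistic. Levels are CPM scaled by TMM over 407 libraries, with a prior count of 0.5 on the log2 scale. Exact two-sided permutation tests compared 27 with 6 months and are given unadjusted. An adjustment over the 8 genes, planned with these tests, is not given, because the 8 genes and all gene lists were chosen with earlier results of these data known. The scripts were tested on simulated data. The genes named are the 8 genes, the called members of the gene lists and the 3 genes most like each member, except that a few of these are not reported here. Gene lengths and GC content came from GENCODE transcripts, and promoters from RefSeq tables, in which Sox10 had no entry. No promoter window of Mbp was searched either. P-values measure the spread between libraries of a group, and with depths of 38583802 reads or more low genes such as Mag rest on few reads.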

Additional observations from a re-analysis of the deposited data

Results flagged for a closer look

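A library was singled out where its log2 level lay far from the nearest other library of its group, by Dixon's test at the 95% limit, applied to each gene in each of the 48 groups (384 tests). Chance flags about 1 in 20 groups. Here 61 values in 35 libraries were singled out, 35 at the low end and 26 at the high end, of which 25 were in the diaphragm and 12 in each of the other muscles. Of the 6 diaphragm libraries whose whole profile stood apart, 5 appear below for Prx and Sox10. Female diaphragm replicate 3 at 24 months, which appears for Sox10, was not among the 6, but its deviation was correlated with GC content at -0.664.

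Mbp in the diaphragm stood off at the low end at 10.6 CPM in female replicate 0 at 27 months. Mbp in the gastrocnemius stood off at the low end at 15.8 CPM in male replicate 0 at 12 months. Mbp in the gastrocnemius stood off at the high end at 62.6 CPM in female replicate 0 at 21 months and 39.6 CPM in male replicate 6 at 18 months. Mbp in the tibialis anterior stood off at the high end at 22.7 CPM in female replicate 6 at 24 months, 18.7 CPM in male replicate 1 at 6 months, 18.3 CPM in male replicate 4 at 12 months and 18.2 CPM in male replicate 6 at 21 months.

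Pmp22 in the tibialis anterior stood off at the low end at 15.6 CPM in female replicate 0 at 21 months. Pmp22 in the diaphragm stood off at the high end at 61.1 CPM in female replicate 0 at 21 months and 80.8 CPM in male replicate 2 at 6 months. Pmp22 in the gastrocnemius stood off at the high end at 52.2 CPM in female replicate 0 at 21 months. Pmp22 in the tibialis anterior stood off at the high end at 29.9 CPM in male replicate 1 at 6 months.

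Prx in the diaphragm stood off at the low end at 0.289 CPM in female replicate 2 at 6 months, 0.849 CPM in female replicate 0 at 21 months, 0.564 CPM in female replicate 0 at 27 months, 0.418 CPM in male replicate 2 at 6 months and 0.519 CPM in male replicate 6 at 27 months. Prx in the gastrocnemius stood off at the high end at 22.7 CPM in female replicate 0 at 21 months. Prx in the tibialis anterior stood off at the high end at 9.26 CPM in female replicate 6 at 24 months and 8.11 CPM in male replicate 6 at 21 months.

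Mag in the diaphragm stood off at the low end at 0 CPM in female replicate 2 at 6 months, 0.0229 CPM in female replicate 0 at 21 months, 0 CPM in female replicate 0 at 27 months, 0 CPM in male replicate 2 at 6 months, 0 CPM in male replicate 1 at 12 months and 0 CPM in male replicate 6 at 27 months. Mag in the gastrocnemius stood off at the low end at 0.215 CPM in male replicate 0 at 12 months. Mag in the soleus stood off at the low end at 0.0462 CPM in female replicate 0 at 12 months, 0 CPM in male replicate 9 at 24 months and 0.0141 CPM in male replicate 8 at 27 months. Mag in the gastrocnemius stood off at the high end at 0.993 CPM in female replicate 0 at 21 months.

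Sox10 in the diaphragm stood off at the low end at 0.151 CPM in female replicate 2 at 6 months, 0.313 CPM in female replicate 0 at 18 months, 0.229 CPM in female replicate 0 at 21 months, 0.213 CPM in female replicate 3 at 24 months, 0.0572 CPM in female replicate 0 at 27 months, 0.157 CPM in male replicate 2 at 6 months and 0.116 CPM in male replicate 6 at 27 months. Sox10 in the tibialis anterior stood off at the low end at 1.03 CPM in female replicate 1 at 18 months and 0.967 CPM in female replicate 4 at 24 months. Sox10 in the gastrocnemius stood off at the high end at 4.27 CPM in female replicate 7 at 6 months and 4.73 CPM in male replicate 4 at 27 months. Sox10 in the soleus stood off at the high end at 4.80 CPM in male replicate 2 at 18 months. Sox10 in the tibialis anterior stood off at the high end at 1.75 CPM in male replicate 6 at 18 months.

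S100b in the soleus stood off at the low end at 0.0587 CPM in male replicate 5 at 18 months. S100b in the diaphragm stood off at the high end at 2.51 CPM in female replicate 0 at 27 months and 1.41 CPM in male replicate 3 at 12 months. S100b in the gastrocnemius stood off at the high end at 2.83 CPM in female replicate 0 at 12 months and 3.52 CPM in female replicate 0 at 21 months. S100b in the soleus stood off at the high end at 3.09 CPM in male replicate 7 at 12 months. S100b in the tibialis anterior stood off at the high end at 2.25 CPM in female replicate 6 at 24 months.

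Ngfr in the diaphragm stood off at the low end at 0.0522 CPM in male replicate 2 at 6 months. Ngfr in the soleus stood off at the low end at 0 CPM in male replicate 5 at 12 months, 0 CPM in male replicate 5 at 18 months, 0 CPM in male replicate 0 at 21 months and 0 CPM in male replicate 2 at 27 months. Ngfr in the gastrocnemius stood off at the high end at 4.57 CPM in female replicate 0 at 27 months. Ngfr in the soleus stood off at the high end at 1.35 CPM in female replicate 3 at 18 months.

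Gdnf in the diaphragm stood off at the low end at 0.108 CPM in female replicate 3 at 27 months. Gdnf in the soleus stood off at the low end at 0.0742 CPM in male replicate 2 at 27 months.

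The Gdnf change from 6 to 27 months differed between female soleus and female gastrocnemius, by -1.46 on the log2 scale (edgeR interaction test, adjusted p = 0.0043).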

How the results depend on the processing

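Of the 64 combinations of gene, muscle and sex, 14 were called with age, and the count lay between 12 and 18 under limma-voom (12), DESeq2 (16), RLE normalization (14), no low count filter (14), a lower fold limit (18), the run of sample numbers (12) and without the diaphragm libraries that stood apart (15). A filter at a mean of 1 CPM, which removes low genes before the test, left 8 combinations (2 of 7 in males) and 8 of 20 higher comparisons. Bonferroni adjustment left 4 (2 in males and 2 in females), with 4 comparisons higher and 0 lower (edgeR, 9 by Benjamini-Hochberg). An adjusted p limit of 0.01 left 7 (3 in males and 4 in females) and 4 lower comparisons, and the lower fold limit gave 17 lower. With the run of sample numbers as a term 4 male combinations were called, and the cause was not tested.

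The labels tie no number to a mouse. Deviations of same-numbered libraries correlated at a mean of 0.00885 to 0.0343 between 6 and 27 months of a muscle. Between limb muscles of an age the mean was 0.191 (gastrocnemius and tibialis anterior, 68 of 102 pairs over 0.1), 0.144 (soleus and tibialis anterior, 64 of 101) and 0.111 (gastrocnemius and soleus, 56 of 103), and with the diaphragm 0.0171 or lower. As not every pair exceeded 0.1, the numbers were not taken to pair libraries. This rule cannot exclude that same-numbered libraries share a mouse. With the replicate block 10 combinations were called (3 of 7 in males), 63 muscle differences in place of 61, and 2 muscle by age interactions in place of 1. No called value changed direction under any of the alternatives run. Without the 6 diaphragm libraries the differences in Sox10 and Mag between male diaphragm and tibialis anterior, which were not called, went from -0.13 and -0.15 to 0.13 and 0.11. In 94 refits that each left out a library, and in exact tests repeated in the same way, 621 values kept their call and 87 lost it.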
